A study of Mus musculus with 2 samples.

Results

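Hedgehog signalling was described in the adrenal gland through 9 genes matched by symbol: the ligands Shh and Dhh, the receptor gene Ptch1, the transducer Smo, the ligand trap Hhip, the transcription factors Gli1, Gli2 and Gli3, and the inhibitor Sufu. All 9 were found once among the 55536 genes of the tables. The study sequenced total RNA from whole adrenal glands of female mice, 8 to 10 months old, bred by crossing CAST, a wild-derived strain, with 5xFAD, whose transgenes model familial Alzheimer's disease. There was 1 group of 2 biological replicates, here mouse 1 and mouse 2 after their replicate numbers, and no group without the 5xFAD background was analysed here. Both mice carried 1 donor identifier, so the replicate numbers alone say that they were separate animals, and the p-values set the difference between these 2 libraries against counting error alone. Depth was 36558609 expected counts over the genes of mouse 1 and 32192201 over those of mouse 2. Since the capsule was not dissected, no level below can be assigned to capsule cells, and fewer cells of a type and less RNA per cell cannot be told apart.

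Hedgehog ligands are secreted proteins that bind Patched receptors. Unbound Patched holds Smoothened inactive, and ligand binding lets Smoothened act in the primary cilium. Gli proteins are then released from Sufu and act as activators instead of being processed into repressors. In the adrenal gland, Shh is made by cortical cells beneath the capsule and is received by capsule mesenchyme, whose Gli1-positive cells are known as progenitors of the steroid-producing cortex. Ptch1, Hhip and Gli1 are classical target genes of the pathway as well as parts of it, so their transcripts are often read as a sign of signalling.

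Every pathway step had a measured transcript. Levels are in TPM, a relative abundance that divides counts by transcript length and library total, so that genes can be compared with each other. Of the 9 genes, 7 reached 1 TPM in both mice, where 23.7% of all genes and 54.1% of nuclear protein-coding genes did so. Dhh and Gli2 stayed below 1 TPM in both. The mean level fell in the order Ptch1, Smo, Sufu, Shh, Gli3, Hhip, Gli1, Dhh and Gli2, from 19.2 to 0.335 TPM. Neighbours in this order had separate ranges over the mice except for 2 pairs. Sufu and Shh met at 6.54 TPM, and the ranges of Gli3 and Hhip overlapped. This holds for the first quantification. In the second, described below, Gli1 ran from 1.46 to 2.70 TPM, a range that held those of Hhip and Gli3. Ptch1 lay above 84.2% of the protein-coding genes, Shh above 63.4%, Gli1 above 49.3% and Gli2 above 38.1%. The authors deposited a second quantification of the same reads, and 0 of the 9 genes differed 2-fold between the quantifications, against 4.78% of genes that averaged 1 TPM or more. Dhh and Gli2 lie below that level, and 0 of 9 is near that share, so it is not a result about these genes.

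**Figure D1:**
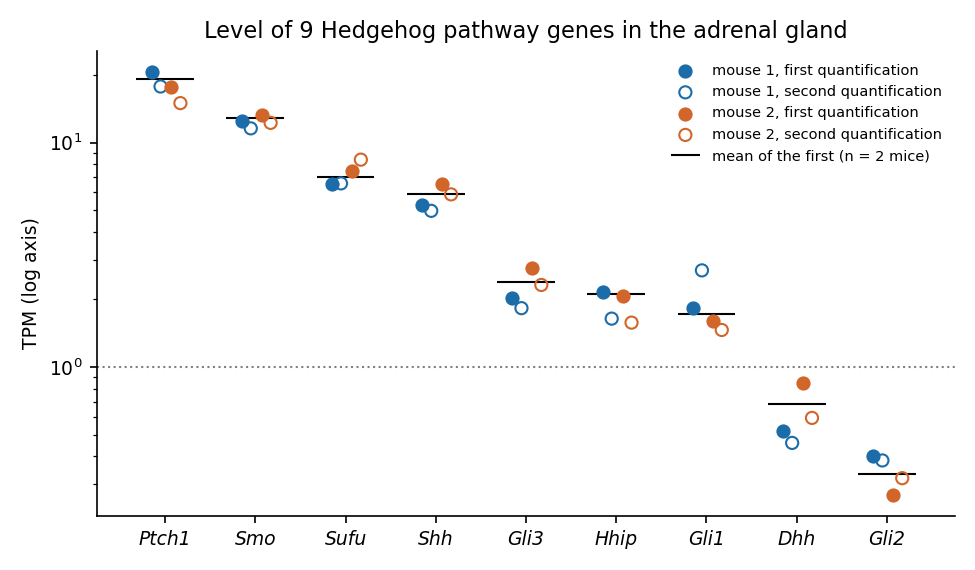
Level of each gene in TPM on a log axis, with filled points for the first quantification, hollow points for the second, blue for mouse 1, orange for mouse 2, and a bar at the mean of the first. Ptch1 stands highest and Gli2 lowest, and the widest gap between a filled and a hollow point of 1 mouse is that of Gli1 in mouse 1, at 1.84 and 2.70 TPM.

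Shh (chr5:28456815-28467256, minus strand, mm10) was the leading ligand of the gland. It measured 5.27 TPM in mouse 1 and 6.54 TPM in mouse 2 (mean 5.91 ± 0.898, SD, n = 2), from 589 and 590 counts. Both mice thus gave nearly equal counts, and the scaled log2 difference of 0.14 had a 95% counting interval of -0.03 to 0.30. Dhh, the ligand best known from Schwann cells of nerves and Sertoli cells of the testis (chr15:98891152-98898540, minus strand), stood at 0.52 TPM and 0.85 TPM from 87.84 and 84.89 counts. Shh exceeded Dhh 10.1-fold in mouse 1 and 7.69-fold in mouse 2 on the TPM scale. The higher TPM of Dhh in mouse 2 came with 5.19 counts placed on Dhh-202, a single-exon transcript of 694 bases that received 31.2% of the gene's TPM there and 0 counts in mouse 1. The second quantification placed 0 counts on Dhh-202 in both mice and gave Dhh at 0.459 and 0.593 TPM.

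The remaining ligand, Ihh, known from cartilage and gut, had 0 counts in mouse 1, which allows up to 3 counts, a CPM of 0.0821, and 3 counts in mouse 2. Genes that release or carry the ligands were also present. Disp1, the transporter that exports the lipid-modified ligand, stood at 5.12 and 5.56 TPM. Scube3, a secreted carrier, stood at 3.85 and 4.72 TPM. Its relative Scube2 had 33 counts in mouse 1 and 10 in mouse 2, the largest difference among the 7 ligand and release genes with enough counts to test.

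The ligand receptor Ptch1 was the most abundant of the 9 genes, with 20.69 TPM for mouse 1 and 17.76 TPM for mouse 2 (19.2 ± 2.07), from 3847 and 2772 counts. Smo, the transducer that Patched restrains (chr6:29735503-29761365, plus strand), stood at 12.47 and 13.25 TPM (12.9 ± 0.552), from 1828 and 1571 counts. Ptch1 exceeded Smo 1.66-fold and 1.34-fold.

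That order turned on short transcripts. Ptch1 lies at chr13:63508328-63573598 on the minus strand of mm10, and 10 of its transcripts are annotated. Its 4 transcripts of more than 7000 bases held 93.5% and 93.9% of the Ptch1 counts but 12.27 and 11.04 TPM. The main Smo transcript, Smo-201, stood at 11.70 and 12.52 TPM. Counted over its long transcripts, Ptch1 was therefore above Smo-201 in mouse 1 and below it in mouse 2. Ptch1-207, of 809 bases and 7 exons, took 223.46 and 129.57 counts. These were 5.81% and 4.67% of the Ptch1 counts, yet because the transcript is short they made 37.41% and 31.32% of its TPM. Ptch1-202 made 41.9% ± 3.63 of the TPM and Ptch1-201 15.9% ± 2.14.

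The 2 quantifications disagreed on which short transcript it was. The second one listed Ptch1-207 at 0.00120 and 0 TPM and placed 5.87 and 3.99 TPM on Ptch1-203, of 849 bases, to which the first gave 0 counts in both mice. Ptch1-203 and Ptch1-207 share 774 bases and differ only in their first exons, of 75 and 35 bases. The posterior SD of the counts, the model's own uncertainty in the deposited transcript tables, was 32.81 and 19.97 counts for Ptch1-207. For Ptch1-203, with an expected count of 0 in both mice, it was 26.54 and 14.63 counts. All 774 shared bases also lie in the long transcripts Ptch1-201 and Ptch1-202, so the first exon alone sets the short transcripts apart from each other by sequence.

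**Figure D2:**
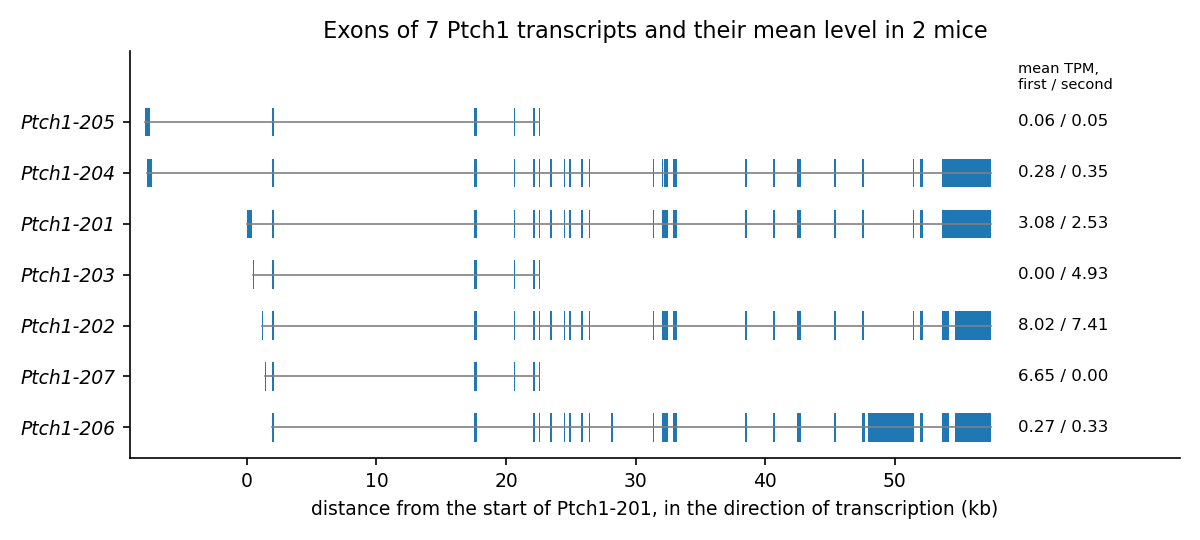
Exons of 7 Ptch1 transcripts by distance in kilobases from the start of Ptch1-201, in the direction of transcription, with the mean TPM over 2 mice in the first and second quantification at the right; exons under 60 bases are drawn 60 bases wide. Ptch1-203 and Ptch1-207 end at the same base and exchange their levels between the quantifications, while Ptch1-202 stands at 8.02 and 7.41 TPM.

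First exons also decide where the Ptch1 protein is annotated to begin. Ptch1-201 starts its coding sequence of 4302 bases in its own first exon, and Ptch1-202, whose first exon lies 1200 bases downstream, starts a coding sequence of 3891 bases in the third exon. Ptch1-203 and Ptch1-207 share that third-exon start and have 522 coding bases, which reach the last base of both. Both end 22559 bases from the Ptch1-201 start, inside an exon that runs on to 22651 in Ptch1-201 and Ptch1-202. Whether these short annotations are complete transcripts was not tested. The transcripts with the second start were assigned most of the Ptch1 signal. Ptch1-201 and Ptch1-202 also differ in their last exons. Ptch1-201 ends in an exon from 53660 to 57407 bases after its start, and Ptch1-202 lacks the bases between 54203 and 54623. Whether first or last exons set the division of counts between Ptch1-201 and Ptch1-202 was not tested, so use of the second start was not measured. The opening 60 coding bases are taken from the GENCODE M21 transcripts, with the start codon in capitals. They run from chr13:63565461-63565520 for Ptch1-201 and from chr13:63548067-63548126 for Ptch1-202, both on the minus strand.
Ptch1-201: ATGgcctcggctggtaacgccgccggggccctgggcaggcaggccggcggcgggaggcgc
Ptch1-202: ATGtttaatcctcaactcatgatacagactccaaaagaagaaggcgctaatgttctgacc

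Ptch1-202 had 2287.93 and 1791.75 counts, and Ptch1-201 had 1121.09 and 641.47. Scaled to the libraries, the log2 difference of mouse 2 from mouse 1 was -0.67 for Ptch1-201 and -0.22 for Ptch1-202. The second quantification gave -0.73 and -0.23. The posterior SD was 93.81 and 72.26 counts for Ptch1-201 and 97.67 and 72.61 counts for Ptch1-202, and whether the transcripts differ in this was not tested. The promoter that RefSeq gives for Ptch1 (GRCm38.p6, chr13:63565686-63565985, minus strand) starts transcription at the first base of Ptch1-201, and the transcribed 50 bases are in capitals.
Ptch1 promoter: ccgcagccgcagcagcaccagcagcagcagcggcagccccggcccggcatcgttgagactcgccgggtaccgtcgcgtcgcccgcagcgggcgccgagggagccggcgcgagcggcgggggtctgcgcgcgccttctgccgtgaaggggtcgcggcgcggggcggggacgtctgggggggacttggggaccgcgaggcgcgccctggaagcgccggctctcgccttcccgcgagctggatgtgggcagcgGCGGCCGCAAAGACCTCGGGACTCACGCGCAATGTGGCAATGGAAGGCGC

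Hhip, a membrane protein that binds and sequesters ligand (chr8:79965851-80058006, minus strand), stood at 2.15 and 2.07 TPM (2.11 ± 0.0566), from 516 and 444 counts. On the TPM scale, no other of the 9 genes had closer values in the 2 mice. Hhip-201, which encodes the protein, made 65.1% ± 5.82 of the TPM, and the noncoding Hhip-202 of 1173 bases the rest. In counts, Hhip-202 held 36.74 and 22.47. The second quantification gave Hhip-201 72.7% and 82.1%.

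Among the co-receptors that help ligand reach Patched, Boc led at 22.13 and 22.99 TPM (22.6 ± 0.608), above Ptch1. Its paralog Cdon stood at 3.86 and 4.37 TPM, 5.73-fold and 5.26-fold lower. Gas1, a membrane-anchored co-receptor, stood at 16.61 and 13.93 TPM. Gpc3, a glypican that competes with Patched for ligand, stood at 16.61 and 17.00 TPM. All 7 reception genes described here, with a median of 15.3 TPM, were detected in both mice.

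The Gli factors were far less abundant than the receptors. Gli3, which acts mainly as a repressor when no ligand is bound (chr13:15463235-15730026, plus strand), stood at 2.04 and 2.76 TPM (2.40 ± 0.509), from 513 and 537 counts. Gli1, an activator and itself a target gene (chr10:127329882-127341974, minus strand), stood at 1.84 and 1.60 TPM (1.72 ± 0.170), from 221 and 173 counts. Gli2, the main activator in many tissues (chr1:118834132-119053619, minus strand), stood at 0.40 and 0.27 TPM (0.335 ± 0.0919), from 107 and 58 counts. Gli3 exceeded Gli2 5.10-fold in mouse 1 and 10.2-fold in mouse 2, and Gli1 exceeded Gli2 4.60-fold and 5.93-fold. In the second quantification Gli3 exceeded Gli2 4.78-fold and 7.27-fold, and Gli1 exceeded Gli2 7.04-fold and 4.58-fold, so the order of the mice for Gli1 over Gli2 turned.

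The order of Gli3 and Gli1 depended on the quantification in mouse 1. Gli3 exceeded Gli1 1.11-fold and 1.73-fold in the first, and the ratios were 0.679 and 1.59 in the second. The second placed 25.9% of the Gli1 TPM of mouse 1 on Gli1-202, a transcript of 467 bases that had 0 counts in the first and 0 in mouse 2. The full-length Gli1-201 stood at 1.26 TPM in each mouse in the first quantification and 1.11 ± 0.00356 TPM in the second. On scaled counts it was lower in mouse 2, from 203.23 and 163.59 counts (log2 -0.18, and -0.16 in the second quantification). It made 68.73% and 78.81% of the TPM in the first. Gli1-205, a retained-intron transcript of 795 bases, made 20.5% ± 8.91 from 13.91 and 5.17 counts. For Gli3, the protein-coding Gli3-201 made 65.5% ± 2.43, Gli3-202 17.9% ± 3.03, and the retained-intron Gli3-203 14.5% ± 2.50. All Gli2 counts lay on Gli2-201 in the first quantification, and 87.5% and 69.5% of its TPM did in the second.

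**Figure D3:**
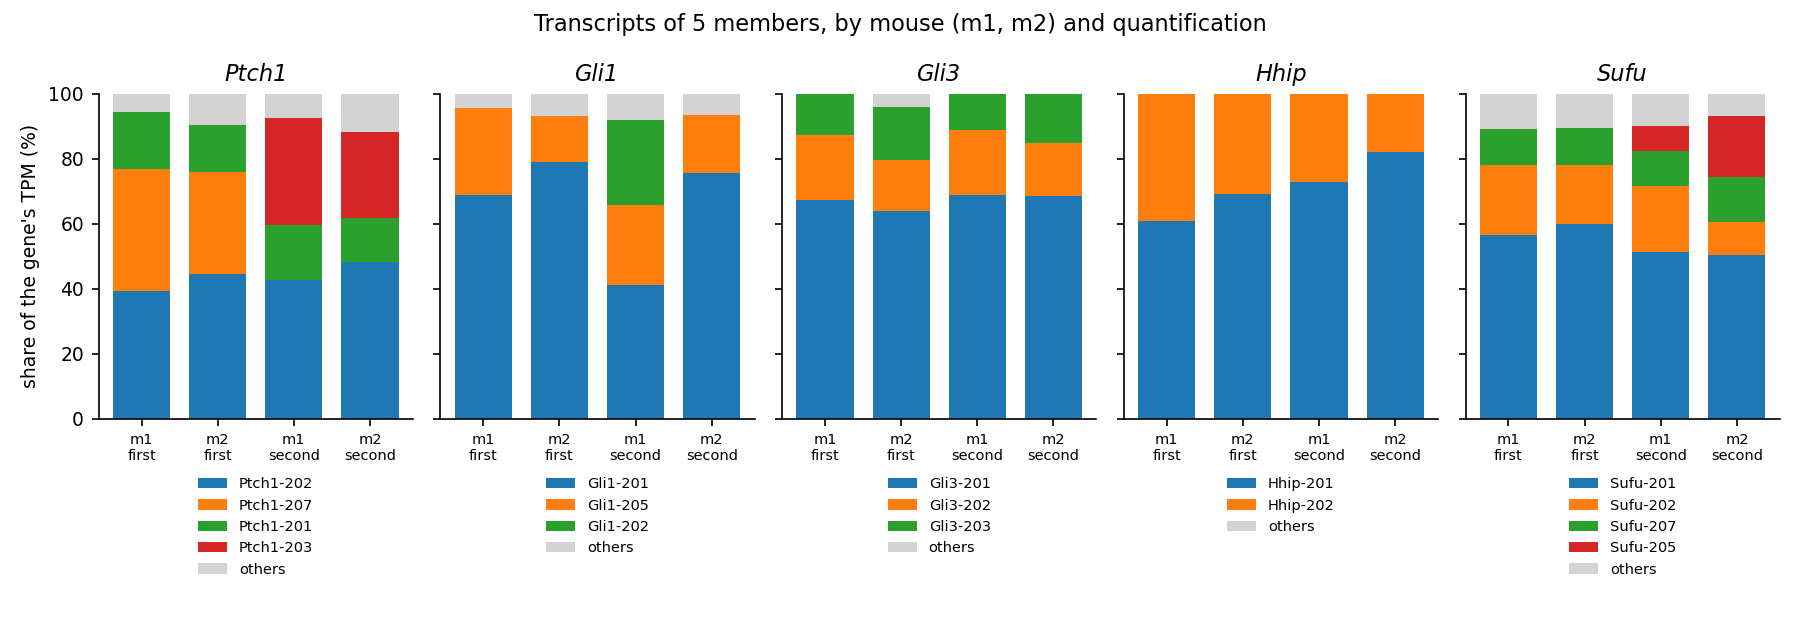
Share of each gene's TPM by transcript, in percent, as stacked bars for mouse 1 and mouse 2 in the first and second quantification, with transcripts under 10% in every bar joined as others. The Ptch1 bars show Ptch1-207 replaced by Ptch1-203, and the Gli1 bar of mouse 1 in the second quantification holds Gli1-202, which no other Gli1 bar does.

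Promoters were searched for the Gli binding consensus. RefSeq promoter windows of 300 bases, from 250 before to 50 after the start, were given for 7 of the 9 genes. The consensus GACCACCCA, read on both strands, was found in 0.253% of 32851 promoters and in 0 of the 7. Its core ACCACCC, which lies within the consensus, was found in 4.61% of promoters and in 1 of the 7, that of Gli2. No match says only that these letters are not in this window. All 7 windows were richer in G and C, at 56.3% to 76.3%, than the median promoter at 52.7%. The Gli2 promoter (GRCm38.p6, chr1:119053570-119053869, minus strand) is shown with the core in capitals, where it reads as its reverse complement.
Gli2 promoter: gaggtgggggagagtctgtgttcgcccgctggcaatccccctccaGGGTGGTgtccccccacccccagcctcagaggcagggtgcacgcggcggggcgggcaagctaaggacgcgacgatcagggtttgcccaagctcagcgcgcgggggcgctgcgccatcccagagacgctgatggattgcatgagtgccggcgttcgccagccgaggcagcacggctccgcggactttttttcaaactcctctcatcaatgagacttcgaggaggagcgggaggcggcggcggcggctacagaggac

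Sufu, which binds Gli proteins and holds them in the cytoplasm (chr19:46396896-46488804, plus strand), stood at 6.54 and 7.51 TPM (7.03 ± 0.686), from 866 and 815 counts. It exceeded Gli1 3.55-fold and 4.69-fold. Sufu-201 made 58.1% ± 2.35 of its TPM, Sufu-202 19.9% ± 2.46 and the noncoding Sufu-207 11.1% ± 0.417. The second quantification gave Sufu-205, a noncoding transcript of 334 bases with 0 counts in the first, 7.55% and 18.8%. Smo was simpler, with 94.2% ± 0.474 of its TPM on Smo-201 (87.4% in the second quantification) and the rest on the retained-intron Smo-202. Shh has 1 annotated transcript.

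Of the 22 genes that regulate Smoothened and the Gli proteins, Sufu among them, 21 were detected in both mice, with a median of 12.6 TPM. The highest was Prkar1a at 138 TPM, the regulatory subunit that restrains protein kinase A. Prkaca, a catalytic subunit of that kinase, followed at 74.3 TPM and Csnk1a1, casein kinase 1 alpha, at 70.8 TPM, and both kinases mark Gli proteins for processing. Gpr161, a ciliary receptor that keeps the pathway off, was lowest at 0.32 and 0.28 TPM. All 26 genes of the primary cilium and its transport were detected, with a median of 5.90 TPM. Ift20 and Ift52, of the intraflagellar transport complex, stood at 33.7 and 21.6 TPM, and Tulp3, which brings receptors into the cilium, at 14.8 TPM. The 31 pathway genes of the ligand, reception, regulator and Gli lists other than the 9 had a median of 8.71 TPM, against 2.40 TPM for the 9.

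Genes that Hedgehog controls in other tissues were uneven. Of 12 such genes, 8 were detected in both mice, with a median of 1.42 TPM. The cyclin genes Ccnd2 and Ccnd1, which many pathways control, led at 165 and 55.6 TPM. Bmp4, a signalling ligand, stood at 2.74 and 3.82 TPM, while its counts of 191 and 128 were lower in mouse 2 (log2 -0.44) and the second quantification gave 2.63 and 2.20 TPM. Foxl1, a mesenchymal factor of the gut, had 7 and 15 counts, and Foxf2, a related factor, was listed at 0 in both mice in the first quantification and at 17.8 and 5.79 counts in the second.

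The tissue that sends and receives Shh was represented by its markers. Of the 14 capsule and mesenchyme markers 13 were detected in both mice, with a median of 9.03 TPM. Nr2f2, a nuclear receptor of the capsule, stood at 34.23 and 33.61 TPM. Rspo3, a Wnt-enhancing signal from the capsule, stood at 5.10 and 6.52 TPM, and Tcf21, a mesenchymal factor, at 4.24 and 4.72 TPM. Gli1, the marker of capsule progenitors, was below all of these. The matrix genes Mgp and Dcn led the list at 51.2 and 48.5 TPM, and Wt1 was lowest at 0.91 and 0.67 TPM. Of the zona glomerulosa, the outer cortex next to the capsule, all 8 markers, Shh among them, were detected. Cyp11b2, the aldosterone synthase, stood at 183.34 and 160.99 TPM (430.0 and 400.3 in the second quantification) and Wnt4, a Wnt ligand of that zone, at 37.36 and 43.84 TPM.

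Markers of other cell types were detected too. Cortex markers had a median of 2517 TPM, led by Star and Hsd3b1, and chromaffin markers 192 TPM, led by Chga, so the labelled tissue matched its defining genes. Adipocyte markers had a median of 144 TPM, with 9 of 10 detected in both mice, and the brown fat gene Ucp1 stood at 141.41 and 276.47 TPM. Fat within the gland and fat attached to it cannot be told apart here. The share of the mesenchyme markers that came with such fat was not tested. Schwann cell markers, of interest beside Dhh, had a median of 0.735 TPM, with 5 of 12 detected. Among them Pmp22 stood at 27.9 TPM, Mbp at 4.69 TPM and S100b at 2.64 TPM, while the defining factor Sox10 had 35 and 33 counts. All 8 endothelial markers were detected, with a median of 21.2 TPM, led by Plvap at 60.6 TPM. Gonad markers beyond Inha, at 8.98 TPM, stayed below 1 TPM, with Fshr at 0. Foxl2, an ovarian factor, had 110 and 33 counts, and Aqp2, a water channel of the kidney, had 16 and 6. Kidney markers beyond Cyp4b1, at 14.8 TPM, stayed at 0.30 TPM or less, and Umod, Slc12a1, Slc34a1 and Kap were at 0.

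**Figure D4:**
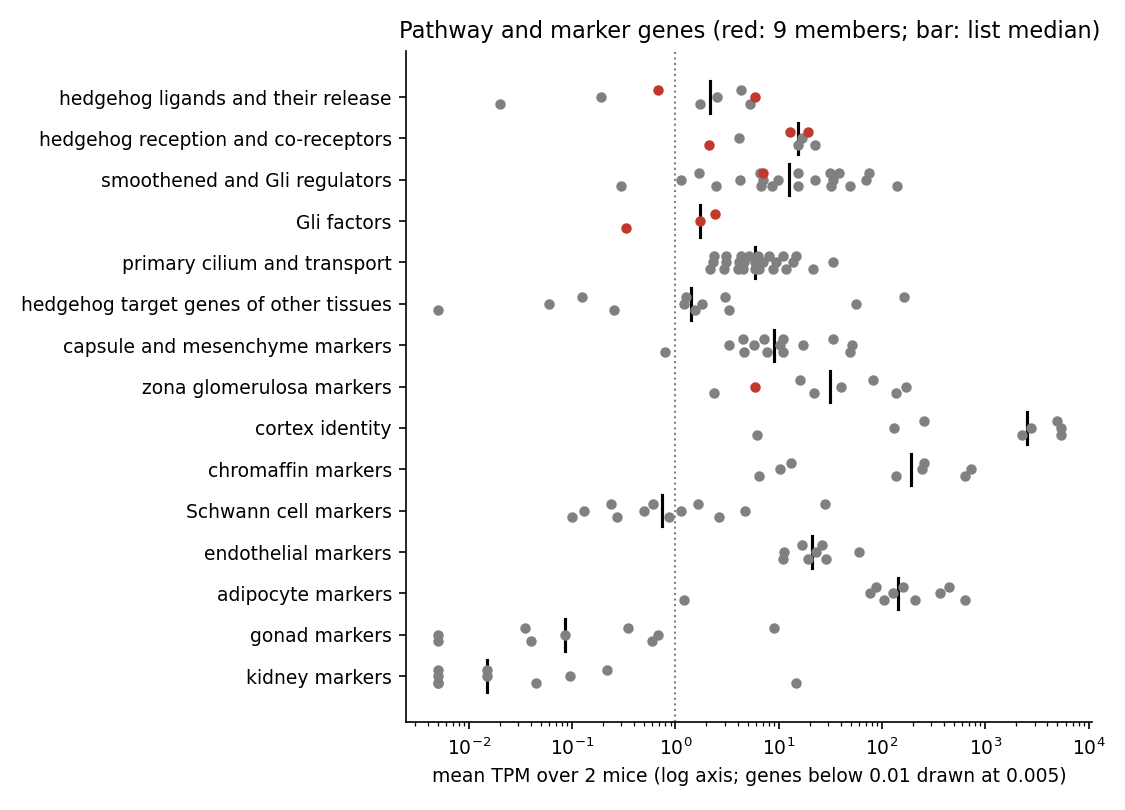
Mean TPM over 2 mice of each gene in 15 lists, on a log axis, with the 9 genes in red, other genes in grey, a bar at each list's median and genes below 0.01 TPM drawn at 0.005. The 3 Gli factors lie at 2.40 TPM and below, under the medians of the reception, regulator and cilium lists.

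The 2 mice were then compared gene by gene. Of the 9, 0 were 2-fold apart, where 2.96% of 17666 genes were, so 0 of 9 is near the share over all genes and not a result about these genes. By an exact two-sided binomial test on counts scaled with edgeR, adjusted by Benjamini-Hochberg over all genes tested, 2 of the 9 (22.2%) differed beyond counting noise. That share was near the 21.3% of all genes, and so is not a result about the pathway. Both were lower in mouse 2, as 11.0% of all genes were. Gli2 differed by a log2 of -0.73 (95% counting interval -1.24 to -0.27, adjusted p = 0.00941 by the exact test), where its counts were 107 and 58. Ptch1 differed by -0.34 (-0.41 to -0.27, adjusted p = 1.92e-19 by the same exact test). Gli1 (-0.22, interval -0.51 to 0.07), Smo (-0.08, -0.18 to 0.01) and Hhip (-0.08, -0.27 to 0.10) did not pass, and neither did Shh, Sufu (0.05, -0.09 to 0.19), Dhh (0.08, -0.36 to 0.53) or Gli3 (0.20, 0.02 to 0.38, adjusted p = 0.0981 by the exact test). These intervals cover counting error only.

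Some co-receptors were on the same side as Ptch1. Of the 7 reception genes, 3 were lower in mouse 2 beyond counting noise by the exact test, where 11.0% of all genes were lower, and 0 were higher, where 10.4% were. Beside Ptch1 these were Gas1 at -0.43 and Boc at -0.12 on the log2 scale (edgeR-scaled exact test, adjusted p = 3.18e-15 and 0.00381). The exact test passes smaller differences where counts are higher. Gas1 had 1935 and 1310 counts and Boc 3920 and 3287. Of 12481 genes averaging at least 100 counts, 3457 differed beyond counting noise in either direction. The share among genes of like counts was not computed, so no excess of reception genes can be read from these shares. The direction for Boc depended on the unit. It was lower in mouse 2 on scaled counts and in FPKM, at 24.52 and 23.34. Its TPM was higher in mouse 2 in both quantifications. Of the classical target genes, Ptch1 passed while Hhip and Gli1 did not, and whether their differences differ from each other was not tested. Of the 31 pathway genes that are not among the 9, 30 were tested, and 3 were higher and 5 lower in mouse 2, with a median log2 difference of 0.02 against -0.0011 over all genes. The regulator list (22 tested) had 2 higher and 1 lower, and the cilium list (26 tested) had 1 higher and 2 lower. Target genes of other tissues (10 tested) had 1 higher and 3 lower, and zona glomerulosa markers (8 tested) had 2 higher and 3 lower, Cyp11b2 among the lower at a log2 of -0.36. Of the gonad markers 4 were tested, and 1, Foxl2 at -1.55, passed as lower. Among capsule and mesenchyme markers 1 was higher, Col3a1, and 3 were lower, Pdgfra, Col1a2 and Lum. In the same libraries, 9 of 10 adipocyte markers were higher in mouse 2, with a summed level of 1677 TPM in mouse 1 and 2766 TPM in mouse 2 and none at 0, and 5 of 8 chromaffin markers were lower, with sums of 2102 and 1977 TPM. The part of these cell types in the lower Ptch1 and Gli2 of mouse 2 was not tested.

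**Figure D5:**
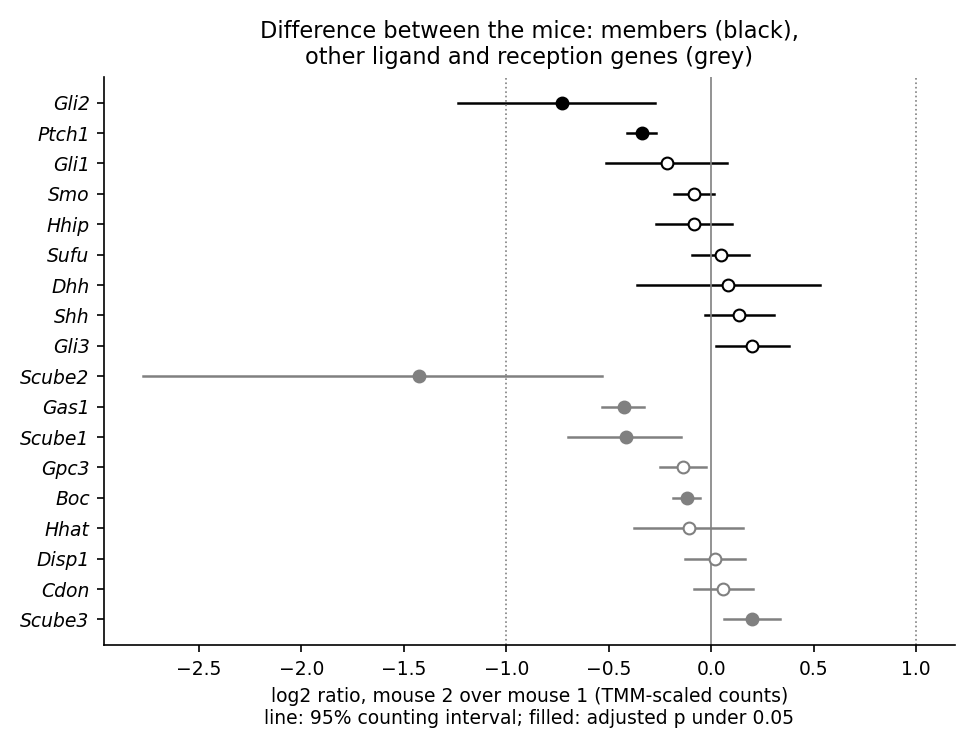
Log2 ratio of mouse 2 over mouse 1 from TMM-scaled counts, with 95% counting intervals, for the 9 genes in black and the other ligand and reception genes in grey, filled where the adjusted p is under 0.05 and dotted at 2-fold. Ptch1 and Gli2 are the 2 filled black points, both below 0, and Scube2 is the one grey point beyond 2-fold.

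Neighbouring genes bear on the counts of a few members. Rhebl1 lies on the strand of Dhh and shares 546 of its 4399 exonic bases, and it had 43.16 and 31.11 counts. The posterior SD of the Dhh count was 2.03 and 2.31. On the other strand of Dhh, Gm49442 shares 1107 bases and had 18 and 11 counts. Shh overlaps the antisense 9530036O11Rik by 446 bases, which had 5 and 10 counts, and Gm26894 by 361 bases, which had 11 and 12. Gli1 overlaps Arhgap9 on the other strand by 62 bases. The library kit keeps strand, and whether the counting used it is not given in the sources used here. The mm10 reference is not of the CAST strain, and reads that differ from it can be lost, which can lower the level of a gene by an unknown amount.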

How the data were processed

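Total RNA of whole adrenal glands was measured in 2 libraries of 1 group. Per the labels' protocols, 300 ng of RNA entered a directional library with ribosomal RNA reduced and ERCC spike-ins. Per the file headers, the tables use mm10 with GENCODE M21, and no aligner or quantifier is named in the sources used here. The deposited gene and transcript tables give expected counts, estimated from transcriptome alignments, with their posterior SD. They also give TPM and FPKM by the authors' scaling, and each deposited transcript has a percent of its gene. A second deposited table holds estimated counts and TPM made from reads and a transcript index, and was summed per gene. ERCC rows held 0.502% and 0.526% of the counts, and other rows that name no gene 0.000982% and 0.000744%. They stayed out of library sizes and tests.

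Levels are the mean and SD of TPM. Log2 ratios of mouse 2 to mouse 1 were made in R 4.3.3 with edgeR 4.0.16, using TMM and a prior count of 2 (none for single transcripts), for 17666 genes averaging at least 10 counts. Expected counts were rounded for the exact binomial test, adjusted by Benjamini-Hochberg at 0.05, which compares 2 libraries and not conditions. The reads carry no molecular identifiers, so PCR copies were counted as reads. The scripts were tested on simulated data.

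The members and lists were chosen with earlier results of these data known. Named were the 9 members, the 3 highest and the lowest genes of each of 15 lists, genes 2-fold apart, 9 pathway and marker genes, and member transcripts of at least 10%. A further item that was on a list is not reported here. Sox10, Ucp1, Umod, Slc12a1, Slc34a1, Col3a1, Pdgfra, Col1a2, Lum and smaller transcripts were picked with their values in view. Alternatives were other scalings (DESeq2 1.42.0 size factors among them), filters, thresholds, units and each mouse alone.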

Additional observations from a re-analysis of the deposited data

How the results depend on the processing

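No paired analysis was possible because there was 1 group. With 1 mouse at a time, the median level of the 9 genes ran from 2.15 to 2.76 TPM, 7 to 7 of them reached 1 TPM, 12 to 12 of the 15 lists had a median of at least 1 TPM, 3 to 4 genes had a transcript of at least 90%, and 0 to 0 differed 2-fold between quantifications. At a threshold of 5 TPM, 4 genes were detected. TPM rescaled to nuclear protein-coding genes put the median level at 7.73, since other RNA then leaves the total, and raised all 9. At a mean of at least 100 counts, 7 of the 9 were tested and 1, Ptch1, stayed beyond counting noise, because Gli2 and Dhh have fewer counts. Over 9 settings the log2 ratio of Ptch1 ran from -0.36 to -0.29, and over 8 settings that of Gli2 ran from -0.75 to -0.68. Under total count scaling, which shifts the median of all genes to 0.047, Gli3 passed the exact binomial test on counts (log2 0.25, adjusted p = 0.0257); the other log2 ratios of the 9 kept their side under each scaling, filter, prior count and quantification tried. The second quantification moved the level of 4 of the 9 genes by more than the SD of the mice, Gli1 up and Ptch1, Smo and Hhip down, and the percent of 10 of 18 transcripts. Ptch1 over its transcripts of more than 7000 bases, an alternative chosen after seeing the data, stood at 11.7 TPM. The depth limits Gli2 and Dhh most.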
